A study of Rattus norvegicus with 18 samples.

Results

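Potassium channel genes were taken as all genes whose platform symbol starts with Kcn, measured by a feature with exactly 1 symbol, and for each gene the feature with the highest mean was kept. Platform symbols Kcne1l and Kcne5 were counted as separate genes, although RefSeq gives the first as a synonym of the second. This gave 89 genes of the 22093 measured. By subunit they comprise 36 voltage-gated pore genes, 15 inward rectifiers, 14 2-pore leak channels, 11 genes of calcium- or sodium-activated channels with the BK beta subunits, and 13 auxiliary subunits. RNA came from the nucleus accumbens, the ventral striatum, of 18 male Sprague-Dawley rats, and each rat had a whole-transcript array of its own. The rats belong to an experiment on methamphetamine self-administration in which footshock is the adverse consequence. The 6 shock-resistant animals went on taking the drug under footshock, as that term is used in the field, the 6 shock-sensitive animals took less of it, and 6 rats were controls. The sources used here do not say whether controls took saline or were shocked, and give no age. RNA quality decided which rats were put on arrays, so the arrays do not sample all animals of a group.

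Potassium channels let potassium leave a neuron and so pull its membrane away from firing threshold. Voltage-gated channels shape the action potential, inward rectifiers and 2-pore leak channels set the resting potential, and calcium-activated channels end bursts of firing. Medium spiny neurons, the projection cells that make up most of the striatum, are known for a silent down-state held by inward rectifiers, and for A-type currents that delay their spikes.

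Array medians lay between 5.43 and 5.56 on the log2 scale of the deposited values, control features included. Of the 89 genes, 54 had a mean at or above 6.37, the median of the negative control features, and 35 lay below it, as did 47.6% of all genes. Those at or above it were 26 of 36 voltage-gated pore genes, 8 of 15 inward rectifiers, 7 of 14 2-pore leak channels, 6 of 11 calcium- or sodium-activated genes and 7 of 13 auxiliary subunits. All 6 members with a Kcne platform symbol, single-span subunits best known from heart and epithelia, lay below it. The mean of 17 medium spiny neuron markers, 16 of which exceeded the negative control median, was 12.28 ± 0.26 in shock-resistant animals, 11.73 ± 0.61 in shock-sensitive animals and 11.95 ± 0.57 in controls (SD, n = 6 each). It spanned 12.01 to 12.76, 10.70 to 12.38 and 10.84 to 12.43 in the same order, and the lowest arrays were shock-sensitive replicate 4 and control replicate 1. Those arrays also had the highest mean of 9 septal and hypothalamic markers, 8.89 and 8.71, against 7.39 to 8.18 in the other 16 arrays. Of these markers 5 lay at or above the negative control median, and they did not all move together. Oxt read 12.83 and 10.59 in those arrays, above all others. Lhx2 read 8.09 and 8.24, lower than in all other arrays but shock-sensitive replicate 5. Pmch and Slc32a1 lay within the range of the other arrays. A mean of 9 choroid plexus markers, 1 of which exceeded the negative control median, was 8.88 in shock-resistant replicate 4 and 5.28 to 5.84 elsewhere. In pieces of tissue, fewer cells of a type and less RNA per cell cannot be told apart.

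No potassium channel gene differed between groups after adjustment over all 22093 genes. Against controls the largest differences of shock-resistant animals were lower values of Kcnj6 and Kcnj3, subunits of the G protein-gated inward rectifiers, and of Kcnt2, a sodium-activated channel. Against shock-sensitive animals they were lower values of Kcnj6 and higher values of Kcnv1, a silent subunit. Of the 89 genes, 0 passed a limma adjusted p of 0.05 in shock-resistant animals against controls, where 0.0181% of all genes passed. At an unadjusted p under 0.05 there were 11 genes in that comparison, 5 higher and 6 lower, which is 12.4% beside 11.4% of all genes (7.22% higher and 4.2% lower). Shock-sensitive animals against controls gave 0 genes after adjustment, as for all genes (0%), and 5 before it, all higher, which is 5.62% beside 6.09% (4.56% higher and 1.53% lower). Shock-resistant against shock-sensitive animals likewise gave 0 after adjustment (0% of all genes) and 11 before it, 5 higher and 6 lower, which is 12.4% beside 6.4% (2.63% higher and 3.77% lower). Of the 54 genes at or above the negative control median, 7, 1 and 10 were at an unadjusted p under 0.05 in these comparisons, beside 9.46%, 3.43% and 9.1% of all such genes. For the methamphetamine groups against each other that is 18.5% of the 54. Kcns2 is counted in the 7 and in the 10, but it passed the cut through its shock-resistant arrays. Its means in the other groups lay below the negative control median. Single arrays weighed on the count of 11 between the methamphetamine groups, which ranged from 3, without shock-resistant replicate 1 or shock-sensitive replicate 4, to 23, without shock-sensitive replicate 1.

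Both methamphetamine groups averaged and set against controls gave 0 genes after adjustment (0.00453% of all genes) and 6 before it, 4 higher and 2 lower, which is 6.74% beside 9.76% (7.15% higher and 2.61% lower) and includes 1 of the 54 above the negative control median (5.61% of such genes). These were Kcnk7 at 0.18 ± 0.052, Kcnj3 at −0.42 ± 0.15, Kcng4 at 0.20 ± 0.075, Kcnj8 at 0.23 ± 0.088, Kcne5 at 0.31 ± 0.12 and Kcnj9 at −0.10 ± 0.046 (log2 difference ± SE). The test of any difference among the 3 groups gave 0 after adjustment (0.00905% of all genes) and 10 before it, 11.2% beside 8.61%, with Kcnt2, Kcnk7, Kcnj3, Kcnf1, Kcnmb2, Kcnj6, Kcns2, Kcnj8, Kcnd3 and Kcng4 from the smallest p up (adjusted p between 0.473 and 0.578). In no gene did all arrays of a group lie beyond all arrays of the other, while 0.688%, 0.38% and 0.213% of all genes did so for shock-resistant minus control, shock-sensitive minus control and shock-resistant minus shock-sensitive. The median log2 difference of the 89 genes was 0.031, 0.012 and −0.0041 in these comparisons, beside 0.011, 0.013 and −0.0026 over all genes. The 3 comparisons share arrays and are not independent of each other. The labels name no batch.

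**Figure D1:**
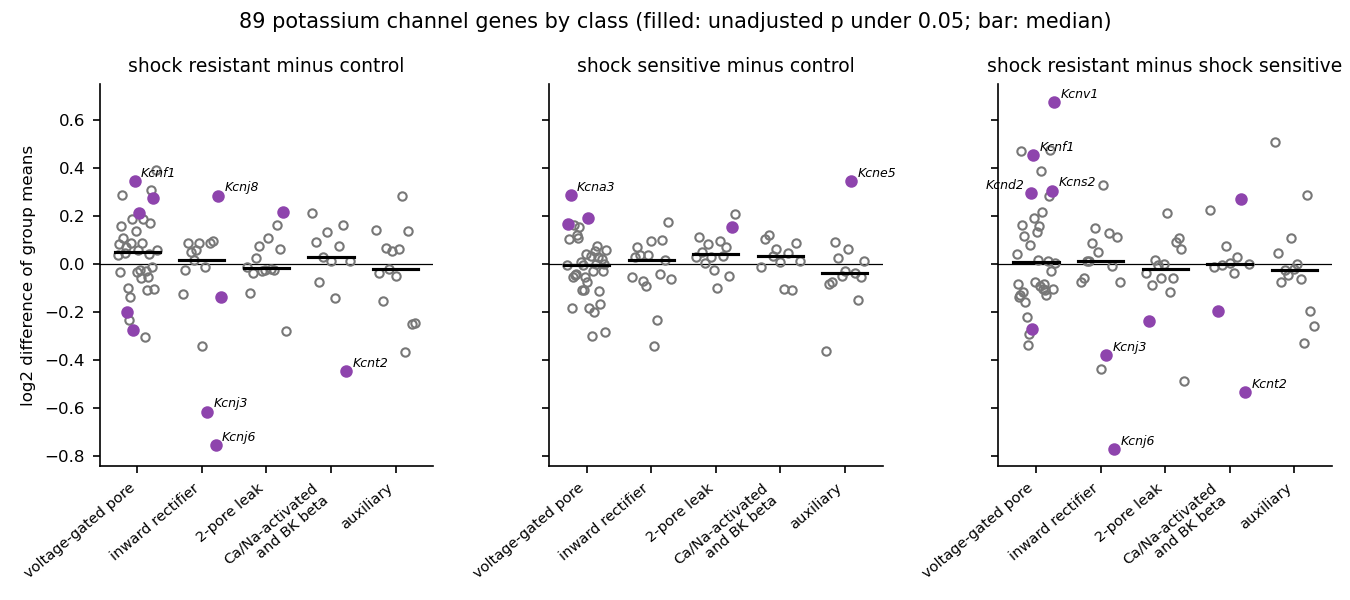
Log2 difference of group means of 89 potassium channel genes, by class, for shock-resistant minus control, shock-sensitive minus control and shock-resistant minus shock-sensitive animals; each point is a gene, filled where the unadjusted p is under 0.05, and each bar is the class median. Class medians stay near 0, and Kcnj6 and Kcnj3 lie lowest in the left panel at −0.75 and −0.61.

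Among the inward rectifiers, 4 of 15 had an unadjusted p under 0.05 in shock-resistant animals against controls, 0 in shock-sensitive animals against controls and 2 in shock-resistant against shock-sensitive animals. Over all genes the shares were 11.4%, 6.09% and 6.4% in the same order. Kcnj3 encodes the subunit shared by most G protein-gated channels of the brain, which dopamine D2, opioid and GABA-B receptors open. In shock-resistant animals it read 7.47 at the lowest, 7.93 at the median and 8.14 at the highest, against 7.77, 8.28 and 8.73 in shock-sensitive animals and 8.02, 8.50 and 8.83 in controls. All 6 shock-resistant arrays lay below the median of each other group, and the groups overlapped. The log2 difference was −0.61 ± 0.18 against controls (SE, 0.654-fold, limma adjusted p = 0.273) and −0.38 ± 0.18 against shock-sensitive animals (adjusted p = 0.769).

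Kcnj6, which pairs with Kcnj3 in neurons, read 6.06, 6.81 and 7.22 in shock-resistant animals, against 6.74, 7.54 and 8.34 in shock-sensitive animals and 6.97, 7.37 and 8.70 in controls (lowest, median and highest). Again 6 of 6 shock-resistant arrays lay below the other groups' medians. The difference was −0.75 ± 0.31 against controls (0.594-fold, adjusted p = 0.377) and −0.77 ± 0.31 against shock-sensitive animals (0.587-fold, adjusted p = 0.753). Control replicate 1 was the highest of all 18 arrays for this gene, and without that array and shock-sensitive replicate 4 the difference against controls was −0.52. Kcnj9, another subunit of these channels, lay below the negative control median and differed by −0.14 ± 0.053 between shock-resistant animals and controls (adjusted p = 0.358). Kcnj5, the partner best known from heart atria and also below that median, differed by 0.094 ± 0.088.

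Kcnj2 is a strong rectifier of the kind that holds the down-state. It read 8.37, 8.64 and 9.12 in shock-resistant animals, 7.54, 8.33 and 8.95 in shock-sensitive animals and 7.91, 8.73 and 9.16 in controls. Its difference of 0.33 between shock-resistant and shock-sensitive animals had a 95% interval of −0.11 to 0.77. Kcnj4, a relative of Kcnj2 concentrated in the striatum and other forebrain areas, differed by 0.089 for shock-resistant minus control, −0.041 for shock-sensitive minus control and 0.13 for shock-resistant minus shock-sensitive. Kcnj10, the main inward rectifier of astrocytes, differed by −0.026, 0.031 and −0.056 in the same order, the first of these turning to 0.0018 under quantile normalization.

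Kcnj16, which joins Kcnj10 in glia, differed by −0.34, 0.094 and −0.44, with standard errors of 0.28. Of the ATP-sensitive pores, Kcnj8, a gene of pericytes and smooth muscle, averaged 6.18 ± 0.12 in shock-resistant animals, 6.07 ± 0.22 in shock-sensitive animals and 5.90 ± 0.21 in controls (SD, n = 6 each). All of these lay below the negative control median, and the difference against controls was 0.28 ± 0.10 (adjusted p = 0.335) with 6 of 6 shock-resistant arrays above the control median. Kcnj11, the pore of ATP-sensitive channels in neurons, differed by 0.086 ± 0.085. Kcnj13, a gene of choroid plexus epithelium, lay below the negative control median and read 5.48 in shock-resistant replicate 4, the array with the high choroid plexus markers, and 4.77 to 5.02 in the other shock-resistant arrays.

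**Figure D2:**
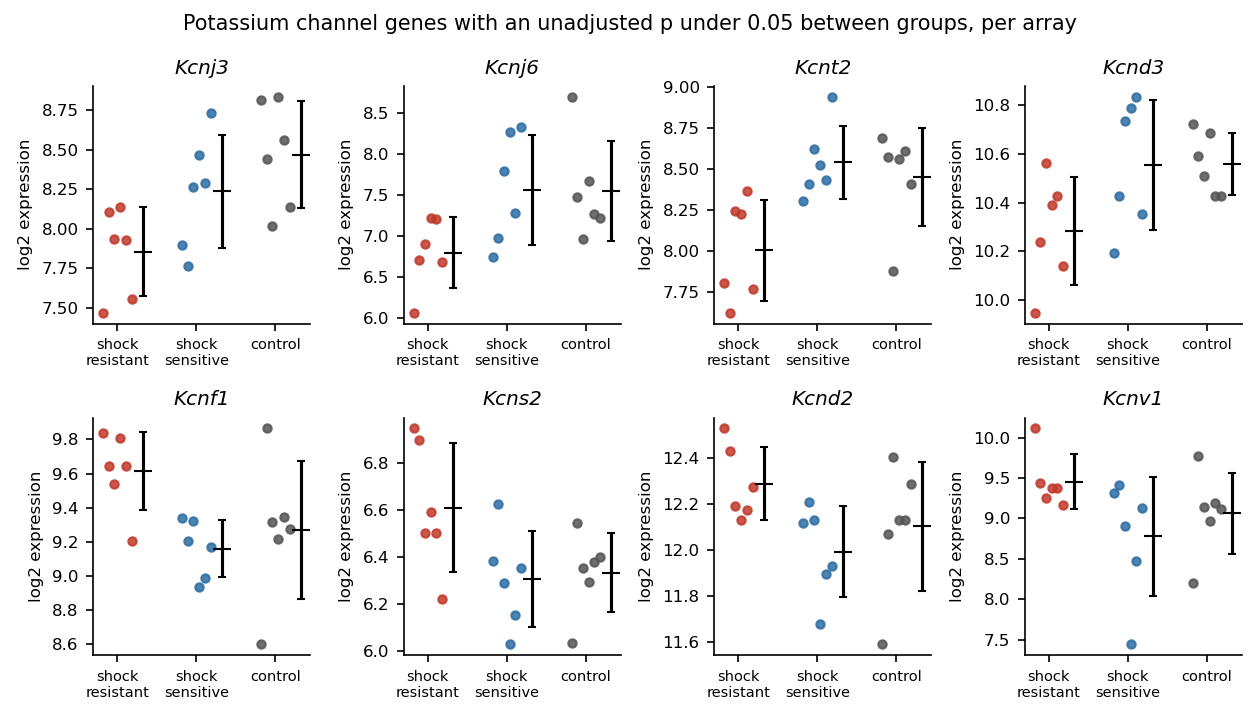
Log2 expression per array of 8 potassium channel genes in shock-resistant, shock-sensitive and control rats, 6 arrays each; bars show the mean ± SD of the group. Kcnj3, Kcnj6, Kcnt2 and Kcnd3 are lower and Kcnf1 and Kcns2 higher in shock-resistant animals on average, with overlap in every panel and the lowest arrays of Kcnd2 and Kcnv1 at 11.59 in a control and 7.44 in a shock-sensitive rat.

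Voltage-gated pore genes gave 5 of 36 at an unadjusted p under 0.05 in shock-resistant animals against controls, 3 in shock-sensitive animals against controls and 5 in shock-resistant against shock-sensitive animals. All genes gave 11.4%, 6.09% and 6.4% in these comparisons. Differences of the A-type pores between the methamphetamine groups had opposite signs. Kcnd3, the pore gene of A-type current in many interneurons, read 9.95, 10.31 and 10.56 in shock-resistant animals, against 10.19, 10.58 and 10.83 in shock-sensitive animals and 10.43, 10.55 and 10.72 in controls. Its differences were −0.28 ± 0.12 against controls (adjusted p = 0.387) and −0.27 ± 0.12 against shock-sensitive animals (adjusted p = 0.757). Kcnd2, the A-type pore of principal neurons, read 12.13, 12.23 and 12.53 in shock-resistant animals, 11.68, 12.02 and 12.21 in shock-sensitive animals and 11.59, 12.13 and 12.40 in controls. It stood 0.29 ± 0.12 above shock-sensitive animals (adjusted p = 0.753, 6 of 6 arrays above their median) and 0.19 ± 0.12 above controls. Kcnd1, a less studied member, differed by 0.077 between the methamphetamine groups.

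Silent subunits form no channel alone and modify the delayed rectifiers they join. Kcnf1 read 9.20, 9.65 and 9.84 in shock-resistant animals, 8.93, 9.19 and 9.34 in shock-sensitive animals and 8.60, 9.29 and 9.87 in controls. It stood 0.45 ± 0.15 above shock-sensitive animals (1.37-fold, adjusted p = 0.753, 6 of 6 arrays above their median) and 0.34 ± 0.15 above controls (adjusted p = 0.409). Kcns2, of the same kind, stood 0.31 ± 0.12 above shock-sensitive animals and 0.28 ± 0.12 above controls (adjusted p = 0.753 and 0.397). Its mean over all arrays was 6.42, close to the negative control median of 6.37, and only its shock-resistant mean lay above that median. Kcnv1 read 9.17, 9.38 and 10.11 in shock-resistant animals, 7.44, 9.02 and 9.41 in shock-sensitive animals and 8.21, 9.13 and 9.77 in controls. Its difference between the methamphetamine groups, 0.67 ± 0.29 (1.6-fold, adjusted p = 0.764), was 0.41 without shock-sensitive replicate 4 and control replicate 1. Kcng4, below the negative control median, averaged 5.97 ± 0.16 in shock-resistant animals, 5.95 ± 0.16 in shock-sensitive animals and 5.76 ± 0.15 in controls (SD, n = 6 each, adjusted p = 0.377 and 0.807 against controls).

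In the Shaker family, Kcna3, a delayed rectifier also abundant in immune cells, stood 0.29 ± 0.13 higher in shock-sensitive animals than in controls (adjusted p = 0.807, 4 of 6 arrays above the control median) and 0.16 ± 0.13 higher in shock-resistant animals. Kcna10, below the negative control median, stood 0.17 ± 0.072 higher in shock-sensitive animals than in controls (adjusted p = 0.807). The axonal channels Kcna1 and Kcna2 differed by 0.041 and −0.14 between the methamphetamine groups, with 95% intervals of −0.23 to 0.31 and −0.35 to 0.074. Kcnb2, a slow delayed rectifier, differed by −0.20 ± 0.096 in shock-resistant animals against controls (adjusted p = 0.436). Kcnc1, Kcnc2 and Kcnc4 let neurons such as parvalbumin interneurons fire fast. Between the methamphetamine groups they differed by −0.22, −0.34 and −0.29, each short of an unadjusted p of 0.05.

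Kcnq3 and Kcnq5 carry the M-current, which muscarinic receptors shut. They differed by 0.28 and 0.47 between the methamphetamine groups, with standard errors of 0.15 and 0.25 (adjusted p = 0.772 and 0.778). With the spiny neuron marker mean in the model, described further on, these differences were 0.062 and −0.012. Of the 8 ether-a-go-go genes, none had an unadjusted p under 0.05 in the comparisons of 2 groups, where 6.09% to 11.4% of all genes did. Differences between the methamphetamine groups ran from −0.13 for Kcnh8 to 0.39 for Kcnh3.

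Of the 11 calcium- or sodium-activated genes, 3 had an unadjusted p under 0.05 in shock-resistant against shock-sensitive animals and 1 in shock-resistant animals against controls. Among all genes 6.4% and 11.4% did so. Kcnt2, a channel opened by sodium inside the cell, read 7.63, 8.02 and 8.36 in shock-resistant animals, against 8.31, 8.48 and 8.94 in shock-sensitive animals and 7.88, 8.57 and 8.69 in controls. All 6 shock-resistant arrays lay below the median of each other group, and a single shock-resistant array reached above the lowest shock-sensitive one. The difference was −0.53 ± 0.15 against shock-sensitive animals (0.691-fold, adjusted p = 0.75) and −0.45 ± 0.15 against controls (0.734-fold, adjusted p = 0.315). Its relative Kcnt1 differed the other way, by 0.27 ± 0.13 against shock-sensitive animals (adjusted p = 0.769) and 0.16 ± 0.13 against controls.

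Kcnmb2, a beta subunit that inactivates BK channels, lay below the negative control median and differed by −0.20 ± 0.066 between the methamphetamine groups (adjusted p = 0.753). Kcnma1, the BK pore, which calcium and voltage open together, averaged 12.66 ± 0.12 in shock-resistant animals, 12.43 ± 0.25 in shock-sensitive animals and 12.44 ± 0.27 in controls (SD, n = 6 each). Its difference between the methamphetamine groups was 0.22, with a 95% interval of −0.030 to 0.48. Kcnn3, a small-conductance channel behind the afterhyperpolarisation, differed by −0.14 in shock-resistant animals and −0.10 in shock-sensitive animals against controls, with standard errors of 0.083.

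Of the 14 2-pore leak genes, 1 had an unadjusted p under 0.05 in each of the 3 comparisons, beside 11.4%, 6.09% and 6.4% of all genes. Kcnk7, whose product gives no known current, stood 0.22 ± 0.060 higher in shock-resistant animals than in controls (adjusted p = 0.269, the smallest of the 89 genes in that comparison) and 0.15 ± 0.060 higher in shock-sensitive animals (adjusted p = 0.786). Its means, 4.32 ± 0.11, 4.25 ± 0.11 and 4.10 ± 0.083 in shock-resistant, shock-sensitive and control rats, lay far below the negative control median. Kcnk10, a stretch- and lipid-sensitive leak channel, differed by −0.24 ± 0.11 between the methamphetamine groups (adjusted p = 0.769). The acid-sensitive Kcnk9 read 7.35, 7.96 and 8.38 in shock-resistant animals, 7.43, 8.54 and 9.31 in shock-sensitive animals and 7.87, 8.09 and 9.03 in controls, a difference of −0.49 ± 0.26 between the methamphetamine groups. Kcnk1, a weak leak channel of neurons and glia, differed by under 0.1 in every comparison, from −0.038 to 0.028.

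Among the 13 auxiliary subunits, Kcne5 alone had an unadjusted p under 0.05 in a comparison of 2 groups, where 6.09% to 11.4% of all genes did. It averaged 6.16 ± 0.25 in shock-resistant animals, 6.22 ± 0.22 in shock-sensitive animals and 5.88 ± 0.30 in controls (SD, n = 6 each), below the negative control median. The difference was 0.34 ± 0.14 in shock-sensitive animals against controls (adjusted p = 0.786, 6 of 6 arrays above the control median). Another feature carries the symbol Kcne1l, which RefSeq gives as a synonym of Kcne5, and it differed by 0.026 in that comparison.

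Kcnip subunits bind the A-type pores and raise their surface number. Kcnip4 and Kcnip3 differed by −0.25 ± 0.13 and −0.25 ± 0.14 in shock-resistant animals against controls, and Kcnip2, the form best known from striatal projection neurons and heart, by 0.14 ± 0.24. Kcnab1, a beta subunit that speeds inactivation of Shaker channels, read 14.09, 14.19 and 14.93 in shock-resistant animals, 12.72, 13.83 and 14.43 in shock-sensitive animals and 13.14, 14.32 and 14.58 in controls. Its difference of 0.51 ± 0.27 between the methamphetamine groups (adjusted p = 0.778) went with 6 of 6 shock-resistant arrays above the shock-sensitive median, and was −0.031 with the spiny neuron marker mean in the model.

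Levels of many potassium channel genes varied with the medium spiny neuron marker mean from array to array. In a limma fit of group and marker mean over 18 arrays, 35 of 89 genes had a slope that passed after adjustment over all 22076 genes outside the marker list, 23 positive and 12 negative. That is 39.3% of the potassium channel genes beside 7.87% of all genes (4.51% positive and 3.37% negative). Among genes at or above the negative control median it was 59.3%, or 32 of 54, beside 13.1%. A slope is the log2 change of the gene per log2 unit of the marker mean. Slopes passed in 18 of 36 voltage-gated pore genes (13 positive, 5 negative), 6 of 15 inward rectifiers (3 and 3), 4 of 14 2-pore leak genes (1 and 3), 3 of 11 calcium- or sodium-activated genes (3 and 0) and 4 of 13 auxiliary subunits (3 and 1). Markers and channels were read on the same arrays of the same tissue pieces, and what sets both was not tested.

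Kcna4, the Shaker pore of A-type current, rose with the marker mean by 1.0 ± 0.058 (adjusted p = 2.42e-08), and Kcnab1, which binds it, by 0.98 ± 0.044 (adjusted p = 1.25e-09). Kcna4 read 11.08, 11.27 and 11.88 in shock-resistant animals, 9.73, 10.94 and 11.48 in shock-sensitive animals and 9.97, 11.22 and 11.46 in controls, and the lowest value of each of the last groups belongs to the array with its lowest marker mean. Kcnq5 rose by 0.89 ± 0.079 (adjusted p = 1.44e-06), Kcnv1 by 0.97 ± 0.12 (adjusted p = 6.04e-05), and Kcnip2 by 0.77 ± 0.12 (adjusted p = 0.000287). Next came the strong rectifier Kcnj2 at 0.69, and the Elk channels Kcnh3 and Kcnh4 at 0.67 and 0.66. Smaller positive slopes that passed were 0.48 for Kcnk2, a mechanosensitive leak channel, 0.43 for Kcnt1, 0.39 for Kcnd2, 0.37 for Kcnj4 and 0.35 for Kcnma1. The other 10 genes with a positive slope that passed were Kcna1, Kcna5, Kcnab2, Kcnd1, Kcnf1, Kcng3, Kcnj12, Kcnmb4, Kcnq3 and Kcns2, between 0.13 for Kcnj12 and 0.47 for Kcna5. Of these Kcnj12 lay below the negative control median.

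Negative slopes passed for 2 of the 4 G protein-gated subunits and for Kcnj16 of the glial rectifiers. Kcnj6 fell as the marker mean rose, with a slope of −0.99 ± 0.14 (adjusted p = 0.000238), and Kcnj3 did so at −0.44 ± 0.12 (adjusted p = 0.0261). The slopes of Kcnj9, at −0.092, Kcnj5, at −0.20, and the astrocyte gene Kcnj10, at −0.17, did not pass (adjusted p = 0.238, 0.0536 and 0.303). The acid-sensitive leak genes Kcnk9 and Kcnk3 had slopes of −0.86 and −0.21 (adjusted p = 0.000114 and 0.0389). Kcnj16 had −0.78 ± 0.16 and Kcnip1, a subunit known from interneurons, −0.66 ± 0.19 (adjusted p = 0.00485 and 0.0357). The remaining negative slopes that passed were those of Kcna6, Kcnc4, Kcnd3, Kcnk10, Kcnh6 and Kcnh8, from −0.50 for Kcna6 to −0.17 for Kcnh6, and Kcnh6 and Kcnh8 lay below the negative control median. Kcnt2, at −0.25 ± 0.12 (adjusted p = 0.289), and Kcnk1, at 0.044 ± 0.088, did not pass.

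**Figure D3:**
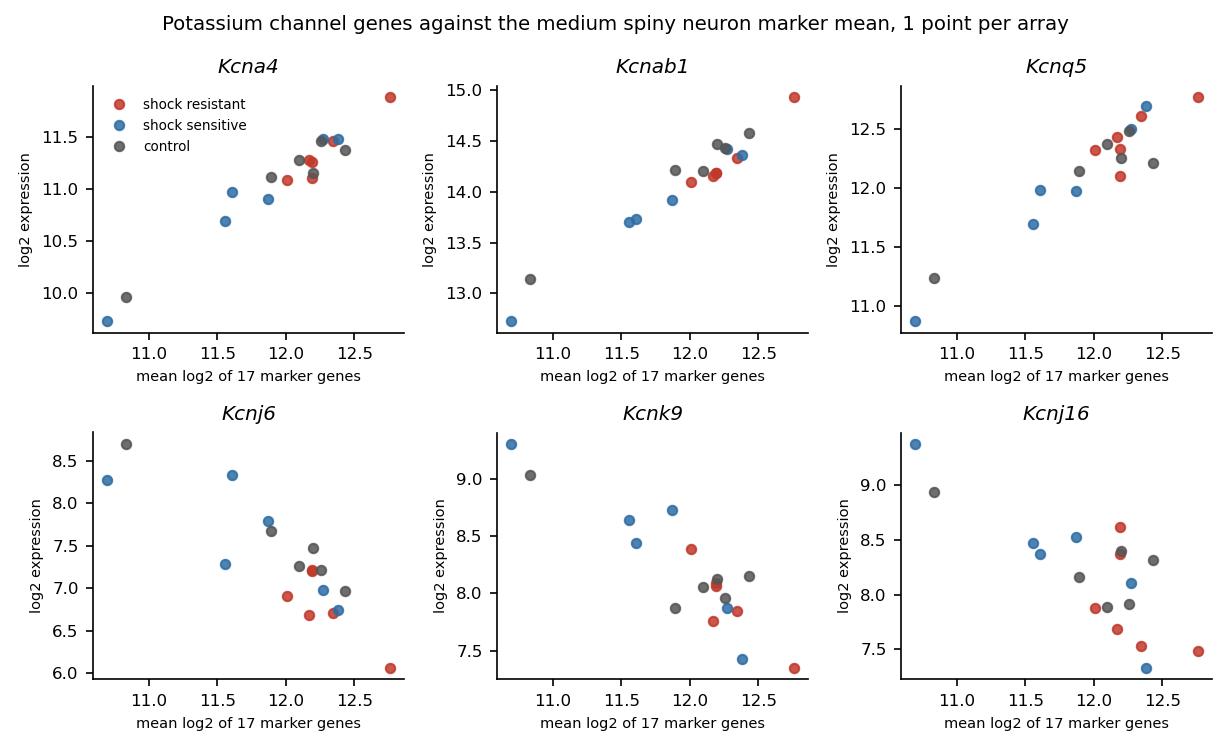
Log2 expression of 6 potassium channel genes (vertical axes) against the mean log2 value of 17 medium spiny neuron marker genes (horizontal axes), 1 point per array for shock-resistant, shock-sensitive and control rats. Kcna4, Kcnab1 and Kcnq5 rise and Kcnj6, Kcnk9 and Kcnj16 fall with the marker mean, and the arrays at 10.70 and 10.84 lie at the end of every panel.

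Fewer slopes passed when the arrays with the lowest marker means were left out. Without shock-sensitive replicate 4 and control replicate 1 together, 10 of 89 genes passed (11.2%, beside 0.974% of all genes), all of them among the 35. They were Kcna4, Kcnab1, Kcnd2, Kcnh4, Kcnip2, Kcnk2, Kcnq5 and Kcnt1 with positive slopes, and Kcnj3 and Kcnj6 with negative ones, at −0.88 and −1.29. All 35 slopes kept their sign, but the arrays that remained were among those by which the 35 were chosen. That they kept it was in part fixed by that choice. Without control replicate 1 alone 20 genes passed (4.76% of all genes did), and without shock-sensitive replicate 4 alone 23 (4.87%). Of the 25 slopes that no longer passed without both, 12 were at least as large as with all arrays and 13 were smaller. The median standard error of the 35 slopes was 0.148 without both and 0.0802 with all arrays. Kcnk9 had −1.01 without both and −0.86 with all arrays, and Kcna5 had 0.71 and 0.47. Smaller were Kcna1, at 0.076 ± 0.14 without both and 0.34 with all arrays, and Kcng3, at 0.016 ± 0.16 and 0.33. Without both, each of these was smaller than its standard error.

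**Figure D4:**
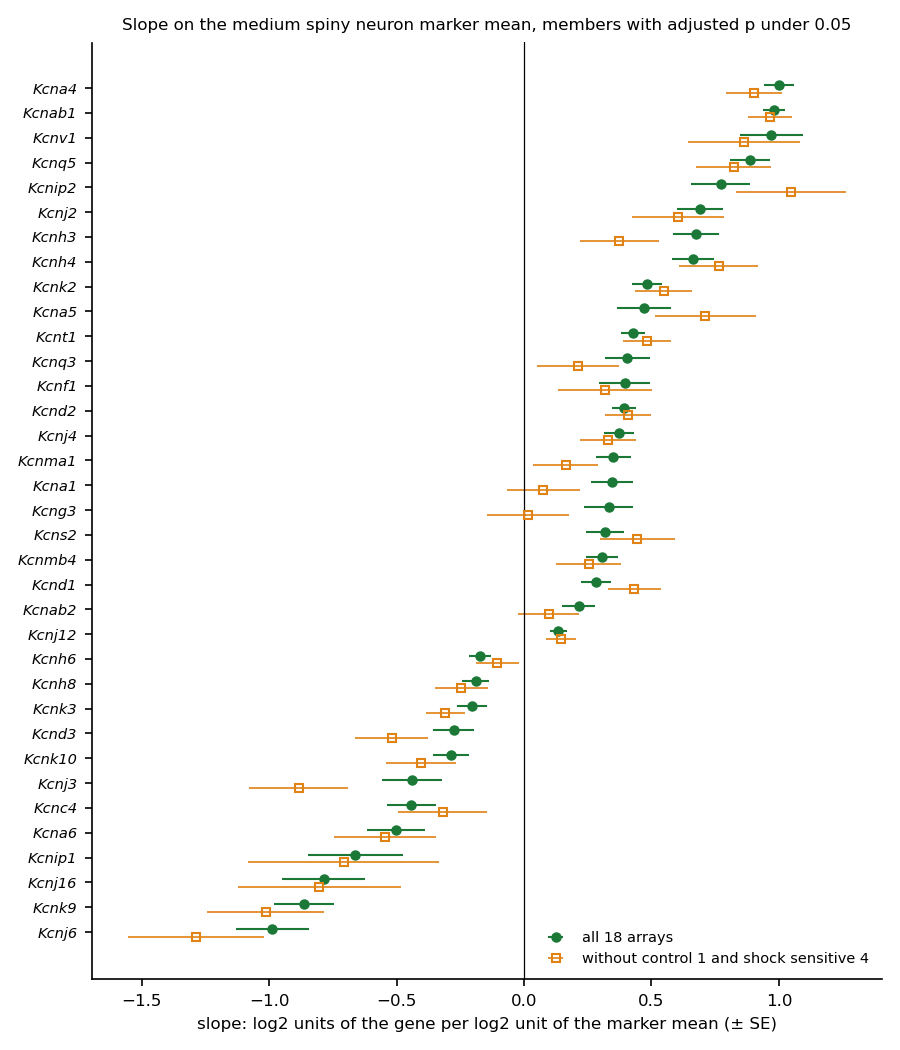
Slopes on the medium spiny neuron marker mean, in log2 units of the gene per log2 unit of the marker mean, with standard errors, for the 35 potassium channel genes that passed; circles use all 18 arrays and squares leave out control replicate 1 and shock-sensitive replicate 4. Slopes run from −0.99 for Kcnj6 to 1.0 for Kcna4. All keep their sign without these arrays, which was in part fixed because the remaining arrays also served to choose the genes.

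The marker mean itself averaged 12.28 in shock-resistant animals against 11.73 in shock-sensitive animals. With the marker mean in the model, 2 genes had an unadjusted p under 0.05 between the methamphetamine groups, in place of 11, which is 2.25% beside 3.97% of all genes in the same fit. These were Kcnt2 at −0.40 ± 0.15 (unadjusted p = 0.0185, adjusted p = 0.999) and Kcnmb2 at −0.18 ± 0.075 (unadjusted p = 0.0244). The difference of Kcnj6 became −0.23 ± 0.18, that of Kcnv1 0.14 ± 0.15, and that of Kcnd2 0.080 ± 0.060. Of the 35 genes whose slope passed, 18 had a difference of the opposite sign between these groups, as did 13 of the other 54. Among the 18 were Kcna4, Kcnab1, Kcnip2, Kcnj2, Kcnj4, Kcnk2 and Kcnq5, at −0.079, −0.031, −0.14, −0.047, −0.074, −0.054 and −0.012. The 35 were chosen by their slope on the same marker mean in the same arrays. That their differences moved with it in the model was in part fixed by that choice.

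Against controls the same model gave more genes at an unadjusted p under 0.05. Shock-resistant animals had 14 in place of 11 (15.7% beside 11.5% of all genes), shock-sensitive animals 6 in place of 5 (6.74% beside 6.2%), and both groups together 10 in place of 6 (11.2% beside 10.8%). The test of any difference gave 6 in place of 10 (6.74% beside 7.94%). In shock-resistant animals Kcnj3 differed by −0.47 ± 0.14 (unadjusted p = 0.00336, adjusted p = 0.293) and Kcnk7 by 0.22 ± 0.064 (unadjusted p = 0.00328, adjusted p = 0.293). Kcnab1 differed by −0.18 ± 0.052 (unadjusted p = 0.00339, adjusted p = 0.293) in that model, against 0.14 without the marker mean in it.

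Upstream sequences are printed for the 3 genes with the smallest adjusted p among positive slopes, Kcnab1, Kcna4 and Kcnq5, and for Kcnj6, which had the steepest negative slope. All 4 passed with and without the low marker arrays, and they were chosen after the slopes were seen. The set of RefSeq gene starts used here (assembly GRCr8) held 62 of the 89 genes. The 250 bases before each start are given 5′ to 3′ on the gene's strand, with matches to the searched motifs in capitals. They lie at chr2:151614301-151614550 (plus strand, Kcnab1), chr3:114215086-114215335 (plus, Kcna4), chr9:31891282-31891531 (minus, Kcnq5) and chr11:47778349-47778598 (minus, Kcnj6).
Kcnab1: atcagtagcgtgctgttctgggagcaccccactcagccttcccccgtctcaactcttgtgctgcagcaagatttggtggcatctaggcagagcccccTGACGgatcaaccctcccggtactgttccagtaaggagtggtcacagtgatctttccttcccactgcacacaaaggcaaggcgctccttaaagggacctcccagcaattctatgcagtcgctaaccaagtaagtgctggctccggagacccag
Kcna4: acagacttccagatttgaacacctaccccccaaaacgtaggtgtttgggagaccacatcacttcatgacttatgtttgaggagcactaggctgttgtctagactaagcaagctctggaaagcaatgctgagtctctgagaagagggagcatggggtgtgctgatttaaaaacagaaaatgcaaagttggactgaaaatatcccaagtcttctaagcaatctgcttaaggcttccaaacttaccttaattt
Kcnq5: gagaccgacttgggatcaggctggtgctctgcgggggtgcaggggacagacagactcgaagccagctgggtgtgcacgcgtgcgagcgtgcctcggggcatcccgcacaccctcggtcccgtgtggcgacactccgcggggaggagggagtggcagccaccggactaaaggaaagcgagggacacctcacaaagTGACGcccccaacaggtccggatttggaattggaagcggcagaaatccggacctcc
Kcnj6: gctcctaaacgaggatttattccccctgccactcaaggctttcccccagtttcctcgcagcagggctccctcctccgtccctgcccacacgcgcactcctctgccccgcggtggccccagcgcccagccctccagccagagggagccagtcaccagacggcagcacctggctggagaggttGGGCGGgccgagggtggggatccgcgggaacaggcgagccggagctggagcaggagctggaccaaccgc

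The motifs searched were TGACG, known as the core of the cyclic AMP response element, and CACGTG, which is called an E-box. The others were GGGCGG, known as the GC box, and TATAAA, which is found in TATA boxes. Each was searched on both strands, and no motif contains another. TGACG lay in the windows of Kcnab1 and Kcnq5 and GGGCGG in that of Kcnj6, and the window of Kcna4 held none. Over the 62 genes TGACG occurred in 11 windows (17.7%, beside 19.0% of 27457 RefSeq windows of the same length) and CACGTG in 2 (3.23% beside 5.8%). GGGCGG occurred in 30 (48.4% beside 32.4%) and TATAAA in 2 (3.23% beside 13.1%). The windows of the 62 genes had a median of 60.2% G and C bases, against 52.0% over all windows. A match is a run of letters and not a measured site.

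No potassium channel gene had a slope that passed on the mean of 13 cortical excitatory neuron markers, where 0.0136% of all genes did. That mean was 6.67 ± 0.12 in shock-resistant animals, 7.0 ± 0.29 in shock-sensitive animals and 6.91 ± 0.41 in controls (SD, n = 6 each). Of the 13 markers 7 lay at or above the negative control median, and they did not all move together. In control replicate 4 Slc17a7 read 10.54 and Slc17a6 7.24, and in shock-sensitive replicate 4 they read 6.43 and 9.90. At an unadjusted p under 0.05 there were 5 genes, beside 3.52% of all genes, all with a positive slope. They were Kcnk4, a mechanosensitive leak channel, at 0.38 ± 0.093 (limma adjusted p = 0.599), Kcnj3 at 0.69 ± 0.21, Kcnh7 at 0.27 ± 0.085, Kcnj9 at 0.20 ± 0.065 and Kcnj13 at 0.27 ± 0.13 (each adjusted p = 0.999). For Kcnj3 the slopes on the 2 marker means had opposite signs.

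The median SD within groups was 0.186 over the 89 genes, beside 0.13 over all genes, and 0.239 beside 0.144 among genes at or above the negative control median. Kcnj6, Kcnv1, Kcnj16, Kcna4, Kcnip1 and Kcnab1 had the highest SD, from 0.50 to 0.58, and all 6 had a marker slope that passed.

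A list of 40 partner genes held mostly genes for proteins that bind, scaffold or modify potassium channels. It also held Hcn2, Hcn3 and Hcn4, which encode cation channel pores themselves. Of the 40 genes 37 were measured, and 0 differed between groups after adjustment. At an unadjusted p under 0.05 the 3 comparisons of 2 groups gave 1, 2 and 5 of 37, beside 11.4%, 6.09% and 6.4% of all genes in the order used above. Dpp10, a partner of the A-type pores, differed by −0.47 ± 0.15 in shock-resistant animals against controls and −0.45 ± 0.15 against shock-sensitive animals (limma adjusted p = 0.311 and 0.753). Its direction was that of Kcnd3 and not of Kcnd2. Dpp6, another partner of these pores, differed by 0.021 ± 0.056 and 0.036 ± 0.056 in the same comparisons. In shock-resistant animals against controls Dpp10 was the only partner at an unadjusted p under 0.05. Shock-sensitive animals against controls gave Rgs6, a brake on G protein-gated channels, at 0.15 ± 0.050, and Calm2, a calmodulin gene, at −0.22 ± 0.086. Shock-resistant against shock-sensitive animals gave 5, which were Dpp10, Akap5 at 0.60 ± 0.25, Gng2, a G protein gamma subunit, at −0.63 ± 0.27, Gnb1, a G protein beta subunit, at −0.14 ± 0.065, and Dlg4, the scaffold that clusters Shaker channels, at 0.22 ± 0.10.

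Slopes on the spiny neuron marker mean passed for 10 of 36 partners, 8 positive and 2 negative, beside 7.87% of all genes (4.51% positive and 3.37% negative). The kinase anchor Akap5 rose by 0.90 ± 0.073 (adjusted p = 5.32e-07) and Nedd4l, a ubiquitin ligase of Kcnq channels, by 0.79 ± 0.083 (adjusted p = 1.08e-05). Gpr158 rose by 0.54 and the scaffolds Dlg2, Dlg4 and Dlg1 by 0.41, 0.32 and 0.32. Gng2 fell by 0.85 and Lrrc55, a BK accessory protein, by 0.51.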

How the data were processed

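Total RNA of the nucleus accumbens, 100 ng per array, was labelled with biotin and hybridised to Affymetrix whole-transcript arrays, per the labels' protocols. The submitters' processing notes name Affymetrix Expression Console. The deposited values were taken to be log2 from their range (highest value 19.93). How features were summarised and arrays normalized was not given in the sources used here.

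The table held 70580 features, of which 23446 carried 1 gene symbol, 505 several and 44891 none. Symbols came from GEO's platform annotation, and 22077 of those features matched RefSeq (GRCr8) by gene number. The 89 members had 95 features, 4 members having over 1, and a feature naming Trim13 and Kcnrg together was left out. No filter on low values was used. For each of the 22093 genes a limma fit (version 3.58.1, R 4.3.3) of group over 18 arrays gave the contrasts, with Benjamini-Hochberg adjustment over all genes and a threshold of 0.05. Marker slopes used group plus the marker mean. The fit was tested on simulated data. Figures used Python 3.11.15 and matplotlib 3.10.9.

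The number of arrays limits the precision. Alternatives are given in the closing section. Genes named in the text were those at an unadjusted p under 0.05 (up to 15 per comparison of 2 groups), those whose slope passed, the 8 smallest slope p in each direction, and 47 members with textbook roles, of which 43 were measured. Of the partner genes up to 5 per comparison were named at an unadjusted p under 0.05. The partner slopes, Kcnj5, Kcne1l, Dpp6 and the Hcn genes were added after their values were seen. The members, marker lists and partner list were chosen with earlier results of these data known.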

Additional observations from a re-analysis of the deposited data

Results flagged for a closer look

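In 201 groups of 6 arrays, 1 group for each of 67 named genes and 3 rat groups, the gap between an end array and its nearest neighbour was divided by the range of the group, and 20 end arrays passed 0.625, Dixon's critical value for 6 arrays. That critical value is set for about 1 in 20 independent groups. The 201 groups share 18 arrays, and some genes were named because their marker slope passed, so that rate is no baseline here.

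Control replicate 1, which had the second-lowest spiny neuron marker mean, stood apart from the other 5 controls in 8 genes. It was low for Kcna4 at 9.97 (others 11.12 to 11.46), Kcnab1 at 13.14 (14.20 to 14.58), Kcng3 at 7.39 (7.99 to 8.31) and Kcnh3 at 7.78 (8.62 to 9.03). It was also low for Kcnj12 at 4.92 (5.16 to 5.24), Kcnj4 at 6.63 (7.20 to 7.50) and Kcnq5 at 11.24 (12.15 to 12.49), and high for Kcnk9 at 9.03 (7.87 to 8.15).

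Shock-sensitive replicate 4, with the lowest marker mean, was low for Kcna1 at 12.09 (others 12.61 to 12.74), Kcnh3 at 7.54 (8.31 to 8.66) and Kcnq3 at 10.29 (10.68 to 10.78). Shock-resistant replicate 1, with the highest marker mean, was high for Kcnab1 at 14.93 (14.09 to 14.34), Kcnmb4 at 7.88 (7.34 to 7.52) and Kcnv1 at 10.11 (9.17 to 9.43), and low for Kcnk3 at 7.17 (7.47 to 7.50). Shock-resistant replicate 4, with the high choroid plexus markers, was high for Kcnj13 at 5.48 (4.77 to 5.02).

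The other 4 were single values. Kcna10 was 5.29 in shock-sensitive replicate 2 (others 5.10 to 5.16) and Kcnab3 was 6.68 in shock-sensitive replicate 1 (7.15 to 7.42). Kcnk12 was 6.75 in control replicate 6 (6.85 to 6.90) and Kcnt2 was 7.88 in control replicate 3 (8.41 to 8.69). The part of the marker means in these values was not tested.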

How the results depend on the processing

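After adjustment 0 potassium channel genes passed in any group comparison, or on the cortical marker slope, under every alternative run. These were quantile normalization, centring on array medians, the mean of a gene's features, all features, genes at or above the negative control median, trend and robust variance, array weights, a replicate block, the spiny neuron marker mean as covariate (group comparisons alone), 2 groups alone (comparisons of 2 groups alone), both low marker arrays left out, and each array left out. Counts at an unadjusted p under 0.05 moved by over 1.5 times as follows. Above the negative control median there were 6 in shock-resistant animals against controls, 1 in shock-sensitive animals against controls, 1 for both methamphetamine groups and 6 for any difference. In that setting 35 members left the test and the fit was made again on the genes that remained. The 7 given earlier for shock-resistant animals against controls came from the fit over all genes. In shock-sensitive animals against controls quantile normalization, centring and leaving out both low marker arrays gave 2 each. Leaving out those arrays gave 7 between the methamphetamine groups and 10 marker slopes. With the marker covariate there were 2 between the methamphetamine groups, 10 for both against controls and 6 for any difference, and the cause was not tested. Leaving out 1 array gave 6 to 14 in shock-resistant animals against controls (6 without shock-resistant replicate 1, 7 without control replicate 1 or 4). It gave 2 to 9 in shock-sensitive animals against controls (9 without control array 1, 2 without control array 2 or 4 or shock-sensitive array 4, 3 without control array 6 or shock-sensitive array 2, 3 or 6). Between the methamphetamine groups it gave 3 to 23 (3 without shock-resistant replicate 1 or shock-sensitive replicate 4, 7 without shock-resistant replicate 2 or shock-sensitive replicate 5, 23 and 18 without shock-sensitive replicate 1 and 2). It gave 5 to 8 for both methamphetamine groups, 4 to 15 for any difference (4 and 5 without shock-resistant replicate 1 and 2, 6 without shock-resistant replicate 6 or shock-sensitive replicate 4 or 5) and 20 to 36 marker slopes. Numbers shared by the groups were not taken to pair the arrays. Deviations of same-numbered arrays correlated between −0.31 and 0.29, but differently numbered arrays were not compared, so a pairing was not excluded. The replicate block gave 12, 5, 9 and 7 genes in the 4 group comparisons, 10 for any difference and 25 marker slopes. No value of a named gene with an unadjusted p under 0.05 changed sign. Values without one could, as did Kcnab1 in shock-resistant animals against controls. Single slopes that passed with all arrays failed to pass 75 times with 1 array left out and 50 times under the other alternatives. Of 27 alternatives, Kcnab2 passed in 6, Kcnd3 and Kcng3 in 12 each and Kcnk3 in 16, while Kcna4, Kcnab1 and Kcnq5 passed in all. Values below the negative control median, in 35 of 89 members, are limited by background.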
